A study of Saccharomyces cerevisiae with 18 samples.

Results

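The 40 genes described here encode proteins that fold and glycosylate other proteins in the endoplasmic reticulum (ER) and Golgi of the budding yeast Saccharomyces cerevisiae. They were taken by symbol from a list of ER chaperone, degradation and glycosylation genes, with the brightest probe set kept for each gene. All 40 were measured, each by 1 probe set, among 5442 named genes that were tested. All 40 also passed the filter on low values, and their log2 levels lay between 8.71 and 14.03 on every array.

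Expression was measured on 18 Affymetrix arrays in 6 groups of 3, which the series design calls biological samples. All groups were in the background BY4741, a haploid laboratory strain of mating type a that lacks functional HIS3, LEU2, MET17 and URA3. The groups were wild type, the rlm1 mutant and the swi3 mutant, each grown for 4 hours either without dye or with Congo Red at 30 µg/ml. Congo Red attaches to cell wall polysaccharides, Rlm1 is a transcription factor of the cell wall integrity pathway, and Swi3 belongs to the SWI/SNF chromatin remodelling complex. How the mutant alleles were made and how many clones were used is not given in the sources used here.

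Secretory and cell wall proteins enter the ER unfolded. There the Hsp70 chaperone Kar2 folds them, Pdi1 and its relatives form their disulphide bonds, and sugars are attached. These are a preassembled N-glycan, built on a lipid by the Alg enzymes and moved to protein by the oligosaccharyltransferase, and O-linked mannose, added by the Pmt enzymes. When unfolded proteins accumulate, the sensor Ire1 splices HAC1 mRNA, and the Hac1 protein then activates chaperone and other ER genes. Much of the yeast cell wall consists of proteins that carry such mannose chains.

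The mutated genes were low where the labels place the mutations. RLM1 lay at 4.34 to 5.25 in the rlm1 arrays and SWI3 at 3.38 to 3.76 in the swi3 arrays. Both were under 7, a level that most foreign reporter probe sets stayed below on every array on the deposited scale. All 5 mating type a genes read above 7 on all 18 arrays, from 9.99 to 11.43 for STE6, 10.03 to 13.34 for MFA1 and 11.98 to 13.24 for MFA2, with STE2 up to 13.15. BAR1 was lowest, at 8.25 to 9.55 in swi3 against 10.85 to 11.29 in rlm1 and 11.21 to 12.11 in wild type. The alpha genes STE3, MF(ALPHA)1 and MF(ALPHA)2 stayed under 7 and SAG1 lay at 7.83 to 8.93. Of the genes not functional in BY4741, HIS3 read 10.30 to 11.50 on all arrays, while MET17 (4.52 to 5.02) and URA3 (3.73 to 5.99) stayed under 7. Both rlm1 arrays numbered 1 stood apart. LEU2 read 8.66 on both against at most 7.04 elsewhere. Of the sporulation genes, SPO13 read 8.34 and 8.16 against at most 5.74, and IME1 10.47 and 10.61 against at most 8.82. SPS1 read 7.80 and 7.96 against at most 7.38, and SPS4 7.57 and 7.09 against at most 7.46. IME2, NDT80 and SPO11 lay within the range of the other arrays. On the deposited scale, the 3′ control probe set of WBP1 exceeded the 5′ one by 1.28 and 1.15 on these arrays, and that of EAF5 by 1.69 and 1.52. On the other rlm1 arrays these values were 0.78 to 0.82 and 0.73 to 1.04. For ACT1, TDH1 and SPT15, this difference was 0.41, 0.73 and 1.47 on the untreated array numbered 1, above the other rlm1 arrays (at most 0.34, 0.2 and 1.44). For RIP1 that array lay within their range. The Congo Red array numbered 1 lay within the range of the other rlm1 arrays for all of these genes. The EAF5 difference was largest, at 2.17, on swi3 untreated number 1. The deposited medians of the rlm1 arrays numbered 1 were 9.27 and 9.28, against 9.98 to 10.02 on the other rlm1 arrays. Medians were at most 10.03 in wild type and 9.58 to 9.70 in swi3. All levels given here, other than those named as deposited, are therefore log2 values after quantile normalization, which gives all arrays 1 distribution.

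In wild-type cells with Congo Red, 4 genes of folding and quality control were called higher and 2 glycosylation enzymes lower, by small amounts. DER1, LHS1, HAC1 and KAR2 were the genes that rose and PMT5 and ALG3 those that fell, all by less than 1.3-fold. These 6 of 40 genes passed an adjusted p of 0.05 in limma (4 higher, 2 lower, 15.0%), against 18.02% of all 5659 features tested (9.24% higher, 8.78% lower), so calls among the 40 genes were about as common as in the whole table. No more than 3 of the 40 genes were called when any 1 of the 6 wild-type arrays was left out. The median difference was 0.02 on the log2 scale for the 40 genes and −0.04 for all features.

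**Figure D1:**
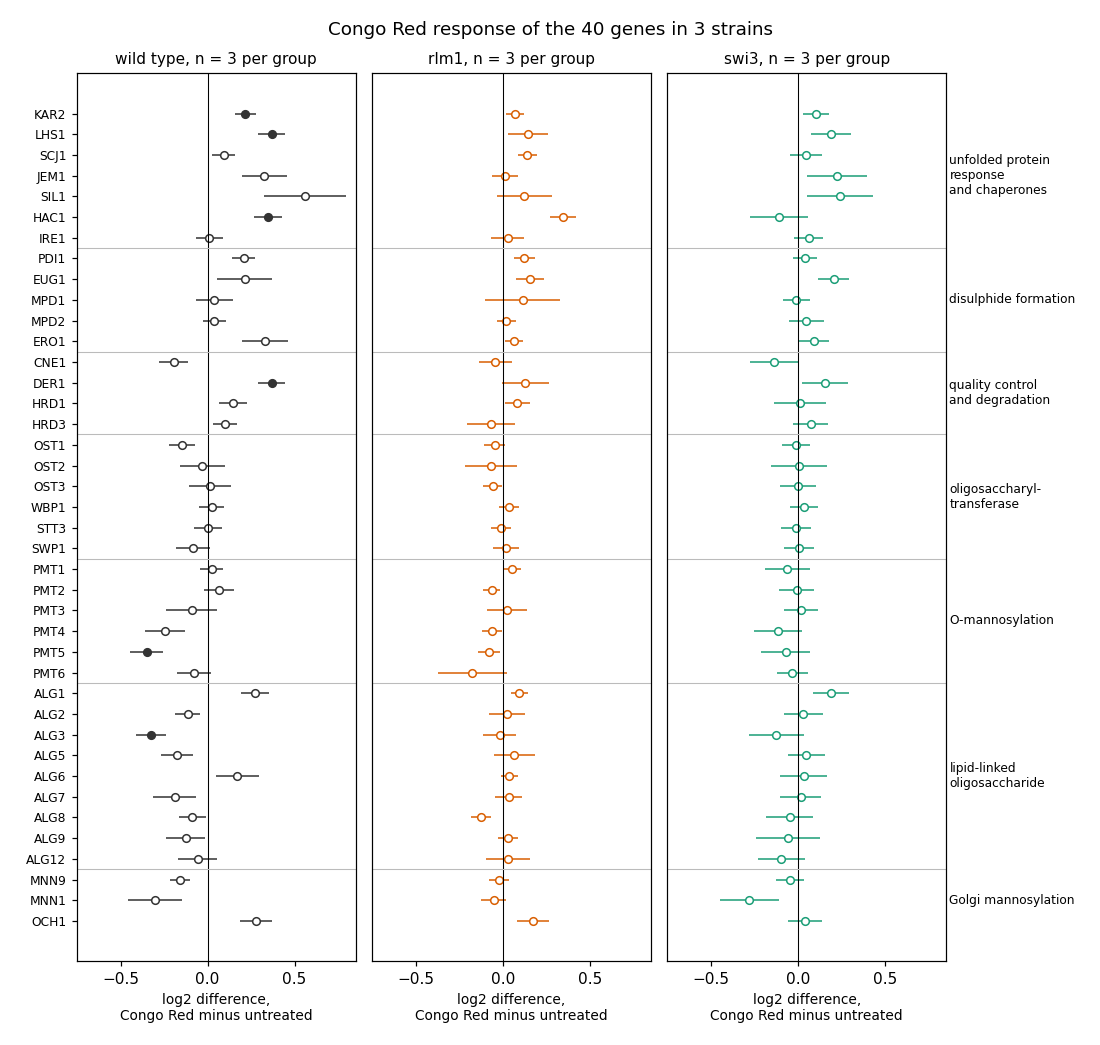
Log2 difference between Congo Red and untreated cells (x axis, in log2 units) for the 40 genes (rows, grouped by role) in wild type, rlm1 and swi3, with bars for 1 SE of the limma fit and 3 arrays per group. Filled points passed an adjusted p of 0.05: 6 in wild type and 0 in either mutant.

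Chaperones and the unfolded protein response were represented by 7 genes. All 7 had positive differences in wild type, beside 42.9% of all features. Their median was 0.33, and 3 of them were called. KAR2, the main ER Hsp70, read 13.58, 13.62 and 13.54 in untreated wild-type cells and 13.79, 13.84 and 13.77 with Congo Red. Every treated array was above every untreated one, and the difference was 0.22 ± 0.06 (SE, n = 3 per group; adjusted p = 0.04986). LHS1, an Hsp70 relative that acts as nucleotide exchange factor for Kar2, went from 10.30, 10.34 and 10.18 to 10.73, 10.66 and 10.54. Its groups did not overlap either, and it rose by 0.37 ± 0.08 (adjusted p = 0.0245).

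HAC1, the transcription factor of the unfolded protein response, read 12.21, 12.08 and 12.34 without dye and 12.58, 12.55 and 12.53 with it. The groups were apart and the rise was 0.35 ± 0.08 (adjusted p = 0.033). A single probe set level does not tell spliced from unspliced HAC1 mRNA. IRE1, which encodes the sensor that splices it, read 9.16, 9.21 and 9.34 without dye and 9.25, 9.17 and 9.31 with it. These values overlapped (difference 0.01, adjusted p = 0.944).

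SIL1, the other exchange factor of Kar2, had the largest difference of the 40 genes, at 0.56 ± 0.23, but was not called (adjusted p = 0.155). Its levels were 9.77, 9.58 and 9.04 without dye and 10.29, 10.11 and 9.66 with it, and the difference ran from 0.35 without untreated number 3 to 0.74 without Congo Red number 3. Array number 3 was the lowest of each group, so the groups overlapped, while the same-numbered arrays differed by 0.53, 0.52 and 0.63. Same-numbered arrays deviated together in every strain, and a fit with the replicate number as a block called SIL1 (adjusted p = 0.00175; 0.00175 to 0.155 over 7 alternative settings). JEM1, a J-domain partner of Kar2, read 9.02, 9.19 and 9.06 against 9.63, 9.46 and 9.16, and SCJ1, another such partner, differed by 0.09. Neither was called by either fit.

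With the block, 14 of the 40 genes were called in wild type (9 higher, 5 lower), against 38.7% of all features (17.1% higher, 21.6% lower). The share of the 40 genes was again close to that of the table. Counted over the 3 pairs without a model, 16 of the 40 were higher in every pair and 16 lower in every pair, against 28.5% and 39.6% of all features. Groups did not overlap for 8 higher and 3 lower genes, beside 17.0% and 21.9% of all features.

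Disulphide formation was represented by 5 genes. All 5 had positive differences in wild type (median 0.21), beside 42.9% of all features, 0 of 5 were called, and 2 passed with the block. PDI1, the main disulphide isomerase, read 13.54, 13.60 and 13.45 without dye and 13.76, 13.75 and 13.70 with it, a difference of 0.21 ± 0.06 (adjusted p = 0.0743; 0.0265 with the block and 0.0143 to 0.14 over the alternatives). Its groups were apart. ERO1, the oxidase that recharges Pdi1, read 11.52, 11.35 and 11.23 against 11.95, 11.58 and 11.57, a difference of 0.33 ± 0.13 (adjusted p = 0.136; 0.0102 with the block, the lowest of the alternatives, which reached 0.186) and of 0.21 without Congo Red number 1. EUG1, a Pdi1 relative, went from 11.29, 11.23 and 10.89 to 11.62, 11.31 and 11.13, with number 3 lowest in each group. The Pdi1 relatives EUG1, MPD1 and MPD2 differed by 0.21, 0.04 and 0.04 and were called by neither fit, and the pairs of MPD1 and MPD2 went both ways.

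**Figure D2:**
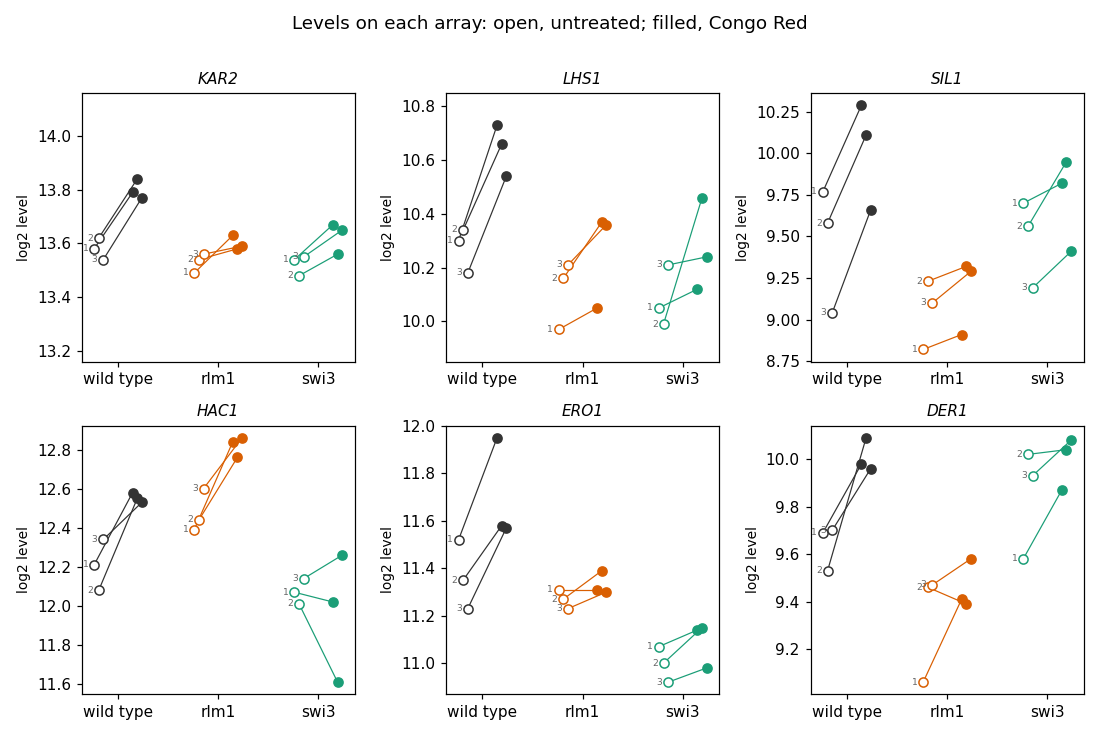
Log2 levels on every array for KAR2, LHS1, SIL1, HAC1, ERO1 and DER1 in the 3 strains; open circles are untreated, filled circles Congo Red, small digits the replicate number, and lines join arrays of the same number. Each gene has its own y axis; in wild type every line goes up, and SIL1 shows how number 3 lies low in both groups.

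Among quality control genes, DER1, a membrane protein that helps move misfolded proteins out of the ER for degradation, rose. It read 9.69, 9.53 and 9.70 without dye and 9.98, 10.09 and 9.96 with it, and rose by 0.37 ± 0.08 (adjusted p = 0.0236) with no overlap. HRD1 and HRD3, the ubiquitin ligase of ER degradation and its partner, differed by 0.15 and 0.10 and were not called. CNE1, the yeast calnexin relative, differed by −0.19 and passed with the block alone (adjusted p = 0.0365).

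Of the 24 glycosylation genes, 8 had positive and 16 negative differences in wild type, and 2 were called, both lower. Of all features, 42.9% had positive differences. None of the 6 oligosaccharyltransferase subunits was called by either fit, and their differences ran from −0.14 for OST1 to 0.02 for WBP1, with OST2, OST3, STT3 (the catalytic subunit) and SWP1 between them. Of the 6 O-mannosyltransferases, PMT5 fell, from 9.80, 9.75 and 9.73 to 9.60, 9.36 and 9.27. Its groups were apart and it fell by 0.35 on the log2 scale (SE 0.09, adjusted p = 0.04998). PMT4 differed by −0.24, or by −0.14 without Congo Red number 3, and passed with the block alone (adjusted p = 0.0153). PMT1, PMT2, PMT3 and PMT6 lay between −0.09 and 0.07.

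Of the 9 genes for lipid-linked oligosaccharide assembly, 7 had negative differences. ALG3, a mannosyltransferase on the lumenal side of the ER, read 10.99, 10.83 and 10.98 without dye and 10.64, 10.47 and 10.70 with it. It fell by 0.33 (SE 0.09, adjusted p = 0.0471) with no overlap. ALG1, which adds the first mannose, went the other way, from 10.38, 10.36 and 10.51 to 10.64, 10.62 and 10.81, a difference of 0.27 ± 0.08 that missed the threshold (adjusted p = 0.0652; 0.0102 with the block). ALG2, ALG5, ALG6, ALG7, ALG8, ALG9 and ALG12 lay between −0.19 and 0.17 and were called by neither fit.

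Of the 3 Golgi mannosyltransferase genes, 1 had a positive and 2 a negative difference, beside 42.9% of all features positive, and 0 were called without the block. OCH1, which starts the outer mannose chain, read 10.58, 10.67 and 10.39 without dye and 10.75, 10.91 and 10.82 with it. Its groups were apart, and it differed by 0.28 ± 0.09 (adjusted p = 0.0868; 0.0262 with the block). MNN1, which caps chains with mannose, read 11.08, 11.04 and 10.59 against 10.75, 10.61 and 10.43. These overlapped, and it differed by −0.30 ± 0.16 (adjusted p = 0.234; 0.0209 with the block), or by −0.46 without untreated number 3, and MNN9, a subunit of the chain-extending complexes, by −0.16.

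The 6 wild-type calls rest on few arrays. Leaving out 1 of the 6 arrays left 0 to 3 of the 40 genes called (0 without untreated number 1, untreated number 2 or Congo Red number 2; 1 without Congo Red number 1; 2 without untreated number 3), KAR2 and ALG3 were called in 0 of these 6 fits, LHS1, HAC1 and PMT5 in 1 and DER1 in 2. KAR2 also lost its call on the deposited values (adjusted p = 0.0812). Its adjusted p ran from 0.00716 to 0.0915 over the alternatives that kept all arrays. HAC1, DER1 and ALG3 lost their calls when all 18 arrays shared 1 fit (adjusted p = 0.068, 0.0555 and 0.0926, the highest for each over those alternatives). In limma fits with 1 array left out, the adjusted p reached 0.14 for KAR2, 0.107 for HAC1, 0.0878 for DER1 and 0.143 for ALG3. It reached 0.189 for PDI1, 0.294 for ERO1 and 0.319 for SIL1. PMT5 lost its call with no filter on low values (adjusted p = 0.05001).

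In the rlm1 mutant, limma called 0 of the 40 genes for Congo Red, against 0.230% of all features. At an unadjusted p of 0.05, 2 of the 40 passed, beside 5.94% of all features, and the block also called 0 (1.10% of all features). HAC1 had the largest difference. It read 12.39, 12.44 and 12.60 without dye and 12.84, 12.76 and 12.86 with it, so the groups were apart, with a difference of 0.34 ± 0.07 (adjusted p = 0.33; 0.0956 with the block). All 7 chaperone and all 5 disulphide genes had positive differences, with medians of 0.12 and 0.11, beside 47% of all features positive.

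Treated arrays lay above all untreated ones for 6 of the 40 genes in rlm1 and below them for 2, beside 5.53% and 6.22% of all features. In every pair, 15 were higher and 9 lower, beside 20.0% and 22.7% of all features.

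KAR2 in rlm1 read 13.49, 13.54 and 13.56 without dye and 13.63, 13.58 and 13.59 with it, a difference of 0.07. SIL1 read 8.82, 9.23 and 9.10 against 8.91, 9.32 and 9.29, and LHS1 9.97, 10.16 and 10.21 against 10.05, 10.37 and 10.36. In both genes the arrays numbered 1 were the lowest of their groups. For PMT6 (11.07, 10.55 and 10.60 against 10.88, 10.41 and 10.41) number 1 was the highest of each group. OCH1 went from 10.01, 10.28 and 10.33 to 10.38 on all 3 arrays, so number 1 was lowest without dye alone. EUG1 went from 10.49, 10.68 and 10.68 to 10.68, 10.82 and 10.82. Both number 1 arrays lay outside the other 4 rlm1 arrays for 19 of the 40 genes, 9 above and 10 below, beside 25.6% above and 31.1% below of all features. Without these 2 arrays, the count of calls among the 40 genes was again 0.

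In the swi3 mutant, 0 of the 40 genes were called by limma, with 0.141% of all features called, and 0 of the 40 passed an unadjusted p of 0.05, beside 6.27% of all features. The block called 0 as well (0.0177% of all features). Of the 7 chaperone genes 6 had positive differences, and of the 5 disulphide genes 4, beside 45.7% of all features. Their medians were 0.10 and 0.05. KAR2 read 13.54, 13.48 and 13.55 without dye and 13.67, 13.56 and 13.65 with it, a difference of 0.10 ± 0.07 in which the groups were just apart. HAC1 read 12.07, 12.01 and 12.14 against 12.02, 11.61 and 12.26, with number 2 lower and number 3 higher with dye (difference −0.11, adjusted p = 1).

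Groups did not overlap for 4 higher and 0 lower genes in swi3, beside 6.38% and 5.14% of all features, and 9 were higher and 4 lower in every pair, beside 18.6% and 22.0%.

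SIL1 in swi3 went from 9.70, 9.56 and 9.19 to 9.82, 9.95 and 9.41, and JEM1 from 9.13, 8.86 and 8.91 to 9.15, 9.52 and 8.90. LHS1 read 10.05, 9.99 and 10.21 against 10.12, 10.46 and 10.24. In JEM1 and LHS1 most of the difference came from number 2. EUG1 (11.67, 11.47 and 11.51 against 11.83, 11.75 and 11.68) was higher in every pair, and MNN1 (9.72, 9.74 and 9.38 against 9.46, 9.52 and 9.01) lower in every pair, with adjusted p = 0.814 and 0.976.

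A response seen in wild type and not in a mutant is not shown to differ between them, so the difference of the responses was tested directly. In rlm1 minus wild type, 0 of the 40 genes were called against 3.71% of all features, with 2 of the 40 at an unadjusted p of 0.05, beside 14.6%. In swi3 minus wild type, 0 of the 40 were called against 1.98% of all features, with 1 of the 40 at an unadjusted p of 0.05, beside 10.7%. Both comparisons use the same wild-type arrays.

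With the replicate block, 3 of the 40 genes had a response in rlm1 that differed from wild type (1 higher, 2 lower), against 18.3% of all features (9.84% higher, 8.46% lower). SIL1 differed by −0.43 (adjusted p = 0.00625; 0.617 without the block), ERO1 by −0.27 (adjusted p = 0.0472; 0.486 without) and ALG3 by 0.31 (adjusted p = 0.0207; 0.313 without). Each of these 3 was called under 1 of 8 alternatives, and the adjusted p reached 1 in all 3. With 1 array left out, the SIL1 difference ran from −0.22 (wild-type untreated number 3) to −0.61 (wild-type Congo Red number 3), and that of ERO1 was smallest, at −0.14, without wild-type Congo Red number 1. ERO1 in rlm1 read 11.31, 11.27 and 11.23 without dye and 11.31, 11.39 and 11.30 with it. ALG3 read 10.70, 10.83 and 10.88 against 10.61, 10.89 and 10.85, so neither gene showed in rlm1 the separation it had in wild type.

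For swi3 the block called 0 of the 40 responses, against 5.74% of all features. HAC1 had the largest difference of responses, −0.46 ± 0.19 (adjusted p = 0.419; 0.116 to 0.618 over 7 alternatives). It was −0.28 without swi3 Congo Red number 2 and −0.60 without number 3. PMT5 differed by 0.28, from 9.61, 9.41 and 9.39 to 9.49, 9.13 and 9.58 in swi3, where number 3 was higher with dye and the other two lower. ERO1 read 11.07, 11.00 and 10.92 against 11.14, 11.15 and 10.98 in swi3, and OCH1 10.43, 10.23 and 10.16 against 10.38, 10.33 and 10.25. Their responses differed from wild type by −0.24 each, with adjusted p = 0.682 and 0.586, and that of ERO1 was −0.12 without wild-type Congo Red number 1. In rlm1, the corresponding differences for JEM1 and PMT5 were −0.31 and 0.27, with adjusted p = 0.411 and 0.304, and that of JEM1 was −0.21 without wild-type Congo Red number 1.

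Without dye, MNN1 was 2.44-fold lower and ALG1 1.67-fold lower in swi3 than in wild type, while PDI1 and EUG1 were higher. In all, 8 of the 40 genes were called by limma (2 higher, 6 lower, 20.0%), against 30.1% of all features (14.7% higher, 15.4% lower). The median difference was −0.12 for the 40 genes and −0.05 for all features. Groups did not overlap for 2 higher and 9 lower genes, beside 20.3% and 25.6% of all features.

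**Figure D3:**
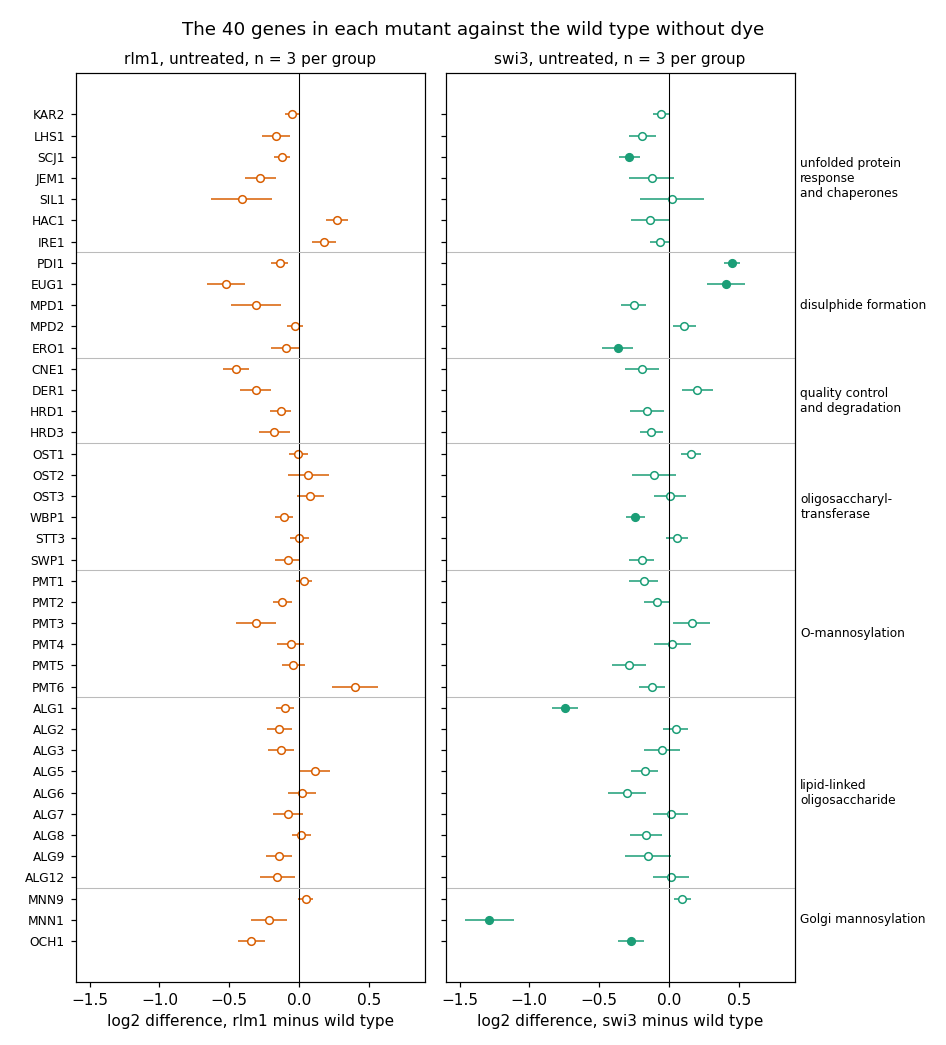
Log2 difference from wild type without dye (x axis, in log2 units) for the 40 genes (rows, by role) in rlm1 and swi3, with bars for 1 SE of the limma fit and 3 arrays per group. Filled points passed an adjusted p of 0.05: 0 in rlm1 and 8 in swi3, where MNN1 lies at −1.29 and ALG1 at −0.74.

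MNN1 read 11.08, 11.04 and 10.59 in untreated wild type and 9.72, 9.74 and 9.38 in untreated swi3. Every swi3 array was below every wild-type array, and the difference was −1.29 ± 0.18 (adjusted p = 0.000304), the only one of the 40 that reached 2-fold. ALG1 read 9.69, 9.60 and 9.74 in swi3 against 10.38, 10.36 and 10.51 in wild type, a difference of −0.74 ± 0.09 (adjusted p = 0.00016). The other Golgi genes were OCH1, which differed by −0.27 ± 0.09 with overlapping groups (adjusted p = 0.0474), and MNN9, which differed by 0.10 and was not called.

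PDI1 lay at 13.98, 13.97 and 13.99 in untreated swi3, above all 6 wild-type arrays with and without dye (highest 13.76), and was higher by 0.45 ± 0.06 (adjusted p = 0.000156). EUG1 was higher too, at 11.67, 11.47 and 11.51 against 11.29, 11.23 and 10.89 (0.41 ± 0.14, adjusted p = 0.0427). ERO1 went the other way, at 11.07, 11.00 and 10.92 against 11.52, 11.35 and 11.23 (−0.37 ± 0.11, adjusted p = 0.0318). Of the 5 genes of disulphide formation, 2 were thus called higher and 1 lower, beside 14.7% and 15.4% of all features. Of 12 fits that left out 1 array, PDI1 was called in 12, ERO1 in 8 and EUG1 in 3.

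SCJ1 (−0.29 ± 0.08, adjusted p = 0.0156) was the only chaperone gene called in untreated swi3. WBP1, an oligosaccharyltransferase subunit, differed by −0.24 ± 0.07 (adjusted p = 0.0231), at 12.45, 12.28 and 12.37 against 12.69, 12.60 and 12.53. The array also carries separate control probe sets for this gene. The 3′ control read 12.44, 12.24 and 12.35 in untreated swi3 against 12.73, 12.64 and 12.58 in wild type on the deposited scale, and the 3′ minus 5′ control difference was 1.32 on swi3 array number 3 against 0.74 to 0.78 on the other two. WBP1 differed by −0.24 without that array too (adjusted p = 0.056), and it was not called without any 1 of 4 arrays, numbers 1 and 2 of wild type and numbers 2 and 3 of swi3, with differences of −0.20 to −0.28 over all 12 fits. No quality control or O-mannosylation gene was called.

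**Figure D4:**
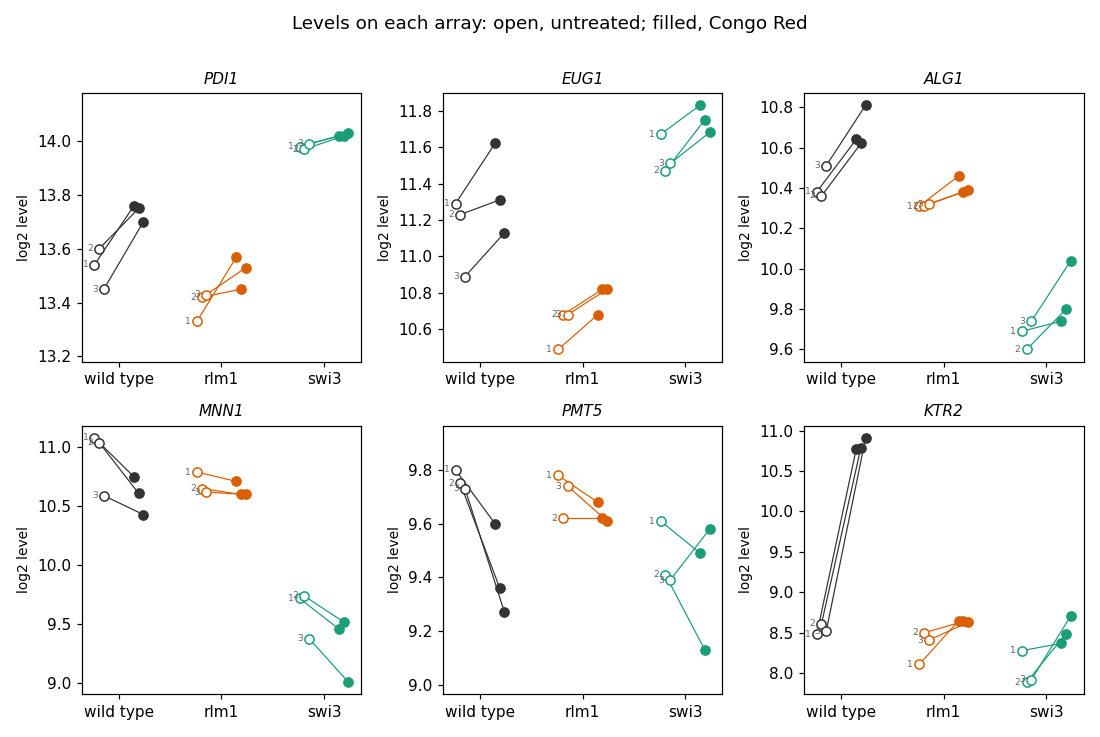
Log2 levels on every array for PDI1, EUG1, ALG1, MNN1, PMT5 and KTR2 in the 3 strains; open circles are untreated, filled circles Congo Red, small digits the replicate number, and lines join arrays of the same number. Each gene has its own y axis; MNN1 and ALG1 lie lowest and PDI1 highest in swi3, and KTR2 lies above 10 on the 3 wild-type Congo Red arrays and below 9 elsewhere.

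MNN1, ALG1 and PDI1 were called in all 12 fits that left out 1 array. SCJ1 was called in 10, ERO1 and WBP1 in 8, EUG1 in 3 and OCH1 in 2. The 12 fits include those without a Congo Red array, which does not enter the untreated difference and changes only the estimate of spread. SCJ1, ERO1 and WBP1 lost their calls only in fits without an untreated array. The count for the 40 genes ran from 3 (without untreated number 2 of either strain) to 10 (without swi3 untreated number 1). It was 4 without swi3 untreated number 3 and 5 without wild-type untreated number 1. On the deposited values, where the median difference of all features is −0.41, 23 of the 40 were called, 1 higher and 22 lower (420 higher and 3427 lower over all features), so the balance of directions depends on the scaling. After median centring SCJ1, ERO1, WBP1 and OCH1 were not called (adjusted p = 0.201, 0.143, 0.752 and 0.145, the highest over 6 alternatives for each), nor was EUG1 on the deposited values (adjusted p = 0.257, likewise the highest).

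In untreated rlm1, 0 of the 40 genes were called against wild type by limma, with 0.495% of all features called, and 8 of the 40 passed an unadjusted p of 0.05, beside 13.8% of all features. The median difference was −0.10 for the 40 genes and −0.01 for all features, and groups did not overlap for 2 higher and 9 lower genes, beside 8.66% and 13.5% of all features. On the deposited values the medians were −0.30 and −0.27. The comparisons of both mutants share the untreated wild-type arrays.

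CNE1 came closest to the threshold, at 9.01, 9.27 and 9.21 in rlm1 against 9.74, 9.62 and 9.49 in wild type (−0.45 ± 0.09, adjusted p = 0.0776). EUG1 read 10.49, 10.68 and 10.68 against 11.29, 11.23 and 10.89 (−0.52 ± 0.14, adjusted p = 0.153). In both genes the groups were apart and the number 1 array was the lowest in rlm1. OCH1 and SIL1 differed by −0.34 and −0.41 (adjusted p = 0.173 and 0.443), and the SIL1 value ran from −0.26 without wild-type untreated number 1 to −0.62 without number 3. PMT6 read 11.07, 10.55 and 10.60 against 10.34, 10.29 and 10.39, and differed by 0.40 with all arrays and by 0.23 without rlm1 untreated number 1. HAC1 lay at 12.39, 12.44 and 12.60 against 12.21, 12.08 and 12.34, with groups apart and a difference of 0.27 (adjusted p = 0.185).

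Around these 40 genes, 66 other genes of the same pathways were measured. In wild type with Congo Red, 4 of the 66 were called (2 higher, 2 lower, 6.06%), beside the 18.02% of all features, and with the block 7 were higher and 16 lower, beside 17.1% and 21.6% of all features. KTR2, a Golgi mannosyltransferase of the KRE2 family, stood far above the rest. It went from 8.48, 8.61 and 8.52 to 10.77, 10.79 and 10.91, a rise of 2.28 ± 0.07 (4.87-fold; adjusted p = 4.5e-05). ROT1, an ER chaperone needed for normal cell wall, rose by 0.77 ± 0.08 (adjusted p = 0.00246), from 10.45, 10.36 and 10.19 to 11.07, 11.12 and 11.13. MNN10, a subunit of a Golgi mannan polymerase, fell by 0.29 (adjusted p = 0.0334), and SSH1, a relative of the translocon subunit Sec61, fell by 0.21 (adjusted p = 0.04986). Of 6 fits that left out 1 array, KTR2 and ROT1 were called in 6, MNN10 in 1 and SSH1 in 0. SSH1 was also not called on the deposited values or after median centring (adjusted p = 0.0687 and 0.0623).

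In rlm1 and swi3, limma and the block each called 0 of the 66 genes for Congo Red, with 5 and 3 of them at an unadjusted p of 0.05, beside the 5.94% and 6.27% of all features. The response differed from wild type for 2 of the 66 in rlm1 (3.03%) and 1 of the 66 in swi3 (1.52%), beside 3.71% and 1.98% of all features. KTR2 read 8.11, 8.50 and 8.41 without dye and 8.65, 8.64 and 8.63 with it in rlm1, and 8.28, 7.89 and 7.92 against 8.37, 8.49 and 8.71 in swi3. All 12 mutant arrays thus lay below 9, and the response differed from that of wild type by −1.98 ± 0.13 in rlm1 (adjusted p = 4e-05) and by −1.79 ± 0.16 in swi3 (adjusted p = 0.000418). ROT1 in rlm1 read 10.39, 10.27 and 10.30 against 10.46, 10.45 and 10.48, a response that differed from wild type by −0.63 ± 0.10 (adjusted p = 0.00891). In swi3 it read 10.61, 10.66 and 10.52 against 10.97, 11.09 and 11.14, and its response differed from wild type by −0.30 without passing the threshold (adjusted p = 0.317). On the deposited values, where rlm1 number 1 lies lower, the rlm1 differences of KTR2 and ROT1 were not called (adjusted p = 0.997 and 1, the highest of 4 alternatives, of which the other 3 called both), with differences of −1.78 and −0.62.

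Without dye, 15 of the 66 were called in swi3 (8 higher, 7 lower, 22.7%), beside the 30.1% of all features. On the deposited values 41 were called, 2 higher and 39 lower, and after median centring 17, 12 higher and 5 lower, so this balance depends on the scaling as well. ALG14, the membrane anchor of the enzyme that adds the second sugar of the lipid-linked oligosaccharide, read 11.11, 11.01 and 11.07 in swi3 against 10.02, 9.99 and 9.95 in wild type. It was higher by 1.08 ± 0.07 (2.11-fold, adjusted p = 2e-06) and was called in all 12 fits that left out 1 array, Congo Red arrays included. On the 2 rlm1 arrays numbered 1, ALG14 read 10.94 and 10.67, against 9.93 to 10.02 on the other rlm1 arrays. SEC59, the dolichol kinase, differed by −1.02 ± 0.13 (adjusted p = 0.000186), at 7.85, 7.95 and 8.18 against 9.09, 9.01 and 8.92. KTR5, another KRE2 family member, was higher by 0.83 ± 0.08 (adjusted p = 1.8e-05), and KTR2 differed by −0.51 ± 0.12 (adjusted p = 0.00771). On the deposited values these genes kept their calls and directions, with differences of −1.61 for SEC59, 0.44 for KTR5 and −1.10 for KTR2. In untreated rlm1, limma called 0 of the 66 (0.495% of all features), with 10 at an unadjusted p of 0.05 (13.8% of all features).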

How the data were processed

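Total RNA from the 18 samples was hybridised to Affymetrix yeast arrays. The authors deposited 1 log2 value per probe set and array, and per the submitters' processing notes these came from GCRMA, which corrects background and summarises probes. No version is given in the sources used here, nor which arrays were normalized together. That deposited values are log2 follows from their range alone. Arrays were checked for duplicates, and at least 95.3% of probe sets differed between any 2.

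Of 5814 probe sets, 98 controls (51 Affymetrix controls, 47 reporters) were left out. Of the 5716 others, 5498 had 1 gene symbol, 218 had none and 0 had several, and 12 symbols were updated through the NCBI table of assembly R64. Second probe sets of a gene, 49 in all, were dropped in favour of the one with the highest mean. Probe sets that reached a log2 level of 4 on fewer than 3 of 18 arrays, 8 in all, were removed, leaving 5659. Of the 47 reporters, 36 stayed under 7 on every array. The non-control probe sets were quantile normalized, because deposited medians differed between arrays and spreads differed between groups. The median SD within a group was 0.0954 to 0.114 in wild type and 0.412 to 0.421 in rlm1 as deposited. It was 0.0987 to 0.146 over the 6 groups afterwards. In rlm1 the arrays numbered 1 had deposited medians of 9.27 and 9.28, against 9.98 to 10.02 on the others. Without the arrays numbered 1, the normalized SD was 0.0467 and 0.0389 in rlm1 and 0.0866 and 0.1065 in wild type.

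Group means were fitted with limma 3.58.1 in R 4.3.3 (lmFit, eBayes) on the arrays of the strains compared. The 7 comparisons were Congo Red in each strain, the difference of that response between each mutant and wild type, and each mutant against wild type without dye. Benjamini-Hochberg adjustment ran over all 5659 features, and calls were made under an adjusted p of 0.05. The fit was tested on simulated data. Precision is limited by having 3 arrays in each group. The labels do not say how the 3 samples were separated beyond calling them biological. Without the block, p-values rest on the spread between these samples taken as independent, although same-numbered arrays of a strain deviated together. In the comparisons without dye, the Congo Red arrays of both strains also enter the estimate of spread.

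Deviations from the group mean were compared between untreated and treated arrays of a strain. Across genes, r was 0.46 to 0.82 for the same number in wild type, 0.81 to 0.89 in rlm1 and 0.46 to 0.69 in swi3, so the numbers were treated as pairs from the data, not from the labels. Some different numbers also correlated (up to 0.41 in wild type and 0.83 in rlm1). Values with the replicate number as a block are given where they change a call. Strains have no pairs between them.

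The 40 genes, the 66 others and the tests were chosen with earlier results of these data known. Named on every array are KAR2, PDI1, HAC1 and IRE1, the 8 of the 40 genes with the largest difference for Congo Red in wild type, the 5 with the largest in each other comparison, and up to 4 called genes of the 66. A few other genes were given array by array after their values were seen. Alternatives were the deposited values, median centring, 1 fit of all 18 arrays, a trended and robust prior, no filter, a filter at 7, the replicate block, leaving out both number 1 arrays of rlm1, and leaving out each array. Where a range, count or highest adjusted p is given over the alternatives, the fits that left out a single array are not included.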

Additional observations from a re-analysis of the deposited data

Results flagged for a closer look

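KTR2 responded differently to Congo Red in each mutant than in wild type by a direct test of the difference: its response was −1.98 (log2, SE 0.13) against wild type in rlm1 and −1.79 (SE 0.16) in swi3. ROT1 differed in rlm1 in the same test, by −0.63 (SE 0.10). None of the 40 genes differed in this test without the replicate block, and groups of 3 arrays are too small for the test of single outlying samples.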

How the results depend on the processing

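With the replicate block the number of the 40 genes called moved from 6 to 14 for Congo Red in wild type and from 0 to 3 for the rlm1 response against wild type. It changed no other call among the 40 genes. For untreated swi3 the deposited values gave 23 calls in place of 8. Leaving out 1 array gave 0 to 3 calls in wild type, 3 to 10 in untreated swi3 and 0 in the other 5 comparisons. Among values called in either setting, directions turned in 3 cases, all in untreated swi3: MPD2 was −0.20 (adjusted p = 0.0482) and ALG2 −0.24 (adjusted p = 0.0327) on the deposited values, and KAR2 was 0.24 (adjusted p = 0.013) after median centring. Median centring gave 7 calls there, 5 higher and 2 lower, of which 4 were shared with the 8.

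Over all 5659 features, calls for Congo Red in rlm1 (13) were 0 on deposited values, 33 in 1 fit of all arrays, 34 with the trended prior, 62 with the block and 123 without both number 1 arrays. In swi3 (8) they were 56, 15 and 1 for 1 fit, the trended prior and the block. The rlm1 response difference (84 higher, 126 lower) gave 9 lower on deposited values, 9 higher and 78 lower after centring, 1036 with the block and 402 without the number 1 arrays; the swi3 response difference (112) gave 59, 69 and 325 for deposited values, centring and the block. Untreated rlm1 (28) gave 3, 7 and 45 for deposited values, centring and the trended prior. In wild type the block gave 2191 in place of 1020, and leaving out 1 array 424 to 754. The cause was not tested in any of these. With 3 arrays per group, small differences are limited by array number.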
